A study of Mus musculus with 20 samples.

Results

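The heterozygous *Dup* capture Hi-C map of the *Lbx1*/*Fgf8* locus was placed between the wild-type map and the homozygous *Dup* map, to ask how far 1 duplicated chromosome moved contact along the way to 2. It was chosen by genotype: 9 of the 20 samples of the series entered, 4 wild-type, 4 homozygous *Dup* and 1 heterozygous *Dup*. All were fore- and hindlimb buds of E11.5 mouse embryos, dissociated with trypsin, fixed with formaldehyde, cut with DpnII and enriched for the locus with capture probes. Wild-type embryos were C57BL/6J. The *Dup* animals descended from G4 embryonic stem cells (a 129sv/C57BL/6 hybrid) in which CRISPR/Cas9 had produced a tandem duplication of chr19:45251633-45792725 (mm9). Cell clones had been selected with puromycin, and mice had been made by diploid or tetraploid aggregation. The labels of both *Dup* groups name G4 as the strain, while the study describes *Dup* mutants used in another assay as C57BL/6 and crossed founders to C57BL/6, so whether strain differed between the maps is not settled by these sources. In the heterozygote 1 chromosome carried the duplication, giving 3 copies of the interval against 2 in the wild-type and 4 in the homozygote.

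The deposited libraries had been merged to 1 map per genotype. The wild-type and homozygous *Dup* maps each joined 3 biological replicates and 1 technical replicate, and the heterozygous map came from 1 biological replicate. No spread between replicates could therefore be computed, no test between genotypes was possible, and every interval given is a 95% counting interval that covers counting error alone. Both mutant maps were compared with the same wild-type map, so the 2 ratios of a region are not independent. The maps covered 1960 kb of chromosome 19, from chr19:44440001-46400000, in 392 bins of 5 kb, and held 7867931 read pairs in the wild-type, 3350758 in the heterozygote and 13101700 in the homozygote. The median bin pair held 21, 10 and 34 read pairs, respectively, so the heterozygous map was the shallowest.

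Chromatin at this scale is folded into topologically associating domains (TADs), stretches that contact themselves more than their neighbours and are separated by boundaries often bound by CTCF. *Lbx1*, a homeobox gene of migrating limb muscle precursors, and *Btrc*, the substrate receptor of an SCF ubiquitin ligase, lie in one TAD. *Fgf8*, a secreted growth factor made by the apical ectodermal ridge (AER) at the rim of the limb bud, lies in the neighbouring TAD with its AER enhancers, several of which sit in introns of *Fbxw4*. A tandem duplication adds a junction at which the end of the first copy meets the start of the second. The duplication held *Lbx1*, *Btrc*, *Poll* (DNA polymerase lambda), *Dpcd* (a gene linked to cilia) and *Fbxw4* (an F-box gene), the boundary between the TADs and the AER enhancers, but not *Fgf8*. Expression was not measured in these libraries.

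The junction and both breakpoints are shown because the contact values turn on them. All 3 sequences are the plus strand of the mm9 reference, 120 bases each, and none was read from the mutant animals. In the breakpoint sequences the capitals mark the duplicated side, chr19:45251573-45251692 at the centromeric end and chr19:45792666-45792785 at the telomeric end. In the tandem order, chr19:45792666-45792725 followed by chr19:45251633-45251692, the capitals mark the start of the next copy.
centromeric breakpoint: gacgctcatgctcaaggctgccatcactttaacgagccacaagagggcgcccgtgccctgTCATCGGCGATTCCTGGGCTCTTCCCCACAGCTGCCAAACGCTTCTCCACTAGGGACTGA
telomeric breakpoint: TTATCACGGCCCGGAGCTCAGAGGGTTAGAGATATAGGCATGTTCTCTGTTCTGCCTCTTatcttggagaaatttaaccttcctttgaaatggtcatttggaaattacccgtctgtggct
tandem order: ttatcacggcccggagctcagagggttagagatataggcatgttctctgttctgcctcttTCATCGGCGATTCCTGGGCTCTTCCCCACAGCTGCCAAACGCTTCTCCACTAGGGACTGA

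Both breakpoints were intergenic in the annotation. The centromeric one lay 20.2 kb beyond the end of *Tlx1* and 55.5 kb from *Lbx1*, and the telomeric one 57.9 kb from *Fbxw4* and 18.6 kb from *Fgf8*. The GC content was 60% at the centromeric breakpoint and 44.2% at the telomeric one. The sequence of the junction as it stands in the animals was not analysed here.

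One label of the heterozygous library named an inversion, while its title and description named *Dup*, so the map itself was compared with both. In the heterozygous *Inv1* map, contact at the new junction of that inversion was 2.27 times that of a window left unrearranged by it, both relative to the wild-type. The same quotient was 1.04 in the library titled heterozygous *Dup* and 0.946 in homozygous *Dup*. At the tandem junction of *Dup*, contact over wild-type was 3.09 in the heterozygous *Dup* library, 5.74 in the homozygote and 1.105 in heterozygous *Inv1*. The median read depth of the bins in the duplication, over wild-type, was 1.59, 2.05 and 1.04 in the same order. On these values the library carried the *Dup* pattern and not that of *Inv1*, and it is called heterozygous *Dup* throughout.

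The heterozygous map departed from its label in 1 further place. In 9 neighbouring bins, chr19:45795001-45840000, beginning in the bin after the telomeric breakpoint bin, its read depth was only 0.421 to 0.659 of the wild-type, with a pooled value of 0.581. These bins were picked as the longest run outside the duplication with heterozygous depth under 0.7. Low depth in them is therefore part of how they were chosen. The same bins had a pooled depth of 1.05 in the homozygote, with a range of 0.851 to 1.21, and 1.08 in heterozygous *Inv1*. Read pairs whose ends fell in the same bin, which are part of the depth that picked the run, gave 10984 in the heterozygote and 45017 in the wild-type. Their depth-corrected ratio was 0.494 (0.483 to 0.504), against 0.991 in the homozygote. Values of 1 copy in 2 would be 0.5. The next 4 bins were back at 1.03 to 1.18, and neither other mutant map had a run of low bins longer than 1 bin. These 45 kb hold the whole of *Fgf8*, *Npm3* (a nucleoplasmin family gene) and Gm15491, part of *Oga* (the enzyme that removes O-linked N-acetylglucosamine from proteins) and the telomeric boundary of the *Fgf8* TAD. Whether sequence was missing there from 1 chromosome of the heterozygous sample was not tested. The homozygote, with the duplication on both chromosomes, did not show the low depth. With 1 biological replicate, a trait of this sample cannot be told apart from one of heterozygous *Dup* embryos. Results that involve this run are marked as such, and the main ones are also given without it.

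**Figure D1:**
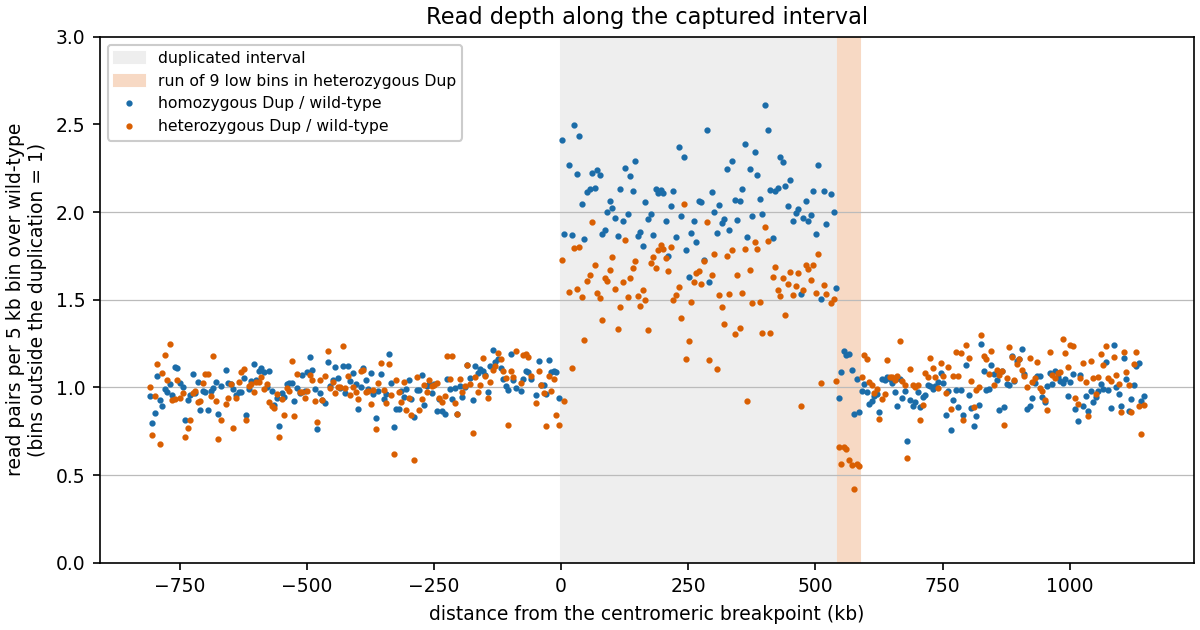
Read depth of each 5 kb bin over the wild-type, corrected for the depth of the flanks, along the distance in kb from the centromeric breakpoint, for heterozygous and homozygous *Dup*. Inside the duplication the medians were 1.59 and 2.05, and the heterozygous map alone fell to 0.421 to 0.659 in 9 bins just beyond the telomeric breakpoint.

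Read depth gave the dose of the duplication without any copy number being assumed. Relative to the flanks and to the wild-type, an inside bin held read pairs in a ratio of 1.57 (1.570 to 1.579) in the heterozygote and 2.04 (2.036 to 2.044) in the homozygote. Ratios for 3 and 4 copies in place of 2 are 1.5 and 2. The heterozygous value lay 55.2% of the way from the wild-type to the homozygote. It was 1.55 when only read pairs 100 kb or more apart were counted, against 2.00 in the homozygote, and 1.56 and 1.59 in even and odd bins. Without the low run the ratios were 1.57 and 2.07 and the share of the way 53.6%.

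Single bins varied more in the shallower map. Over the 105 inside bins with values, the heterozygous depth ran from 0.896 to 2.04 with quartiles of 1.49 and 1.70, and the homozygous depth from 1.503 to 2.61. In the heterozygote 10 inside bins lay below the highest bin outside, whereas in the homozygote no inside bin did. The median was 0.995 over the centromeric flank and 1.06 over the telomeric flank beyond the low run, levels that the correction by the flanks sets near 1.

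For contact, the deposited heterozygous and homozygous signals were LOIC-normalised, a correction that keeps the copy number of a region in the values, and the wild-type signal was balanced by Knight-Ruiz (KR). Bins of the duplication had total signals 1.5 and 2 times those of other bins in the heterozygous and homozygous maps, as set by the normalisation, so ratios of this signal are not independent of the copy number put in. Each mutant map was scaled to the wild-type distance by distance on bin pairs within a flank. Contact within the centromeric flank was then 1.02 and 1.01 of the wild-type in heterozygote and homozygote, and within the telomeric flank 0.978 and 0.988. The scaling was fitted on these same bin pairs, so values near 1 were set in advance. The 4 ratios show only how far the flanks differed from each other, and give no scaling error for other classes. Differences of a few percent elsewhere are no larger than this difference between flanks.

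**Figure D2:**
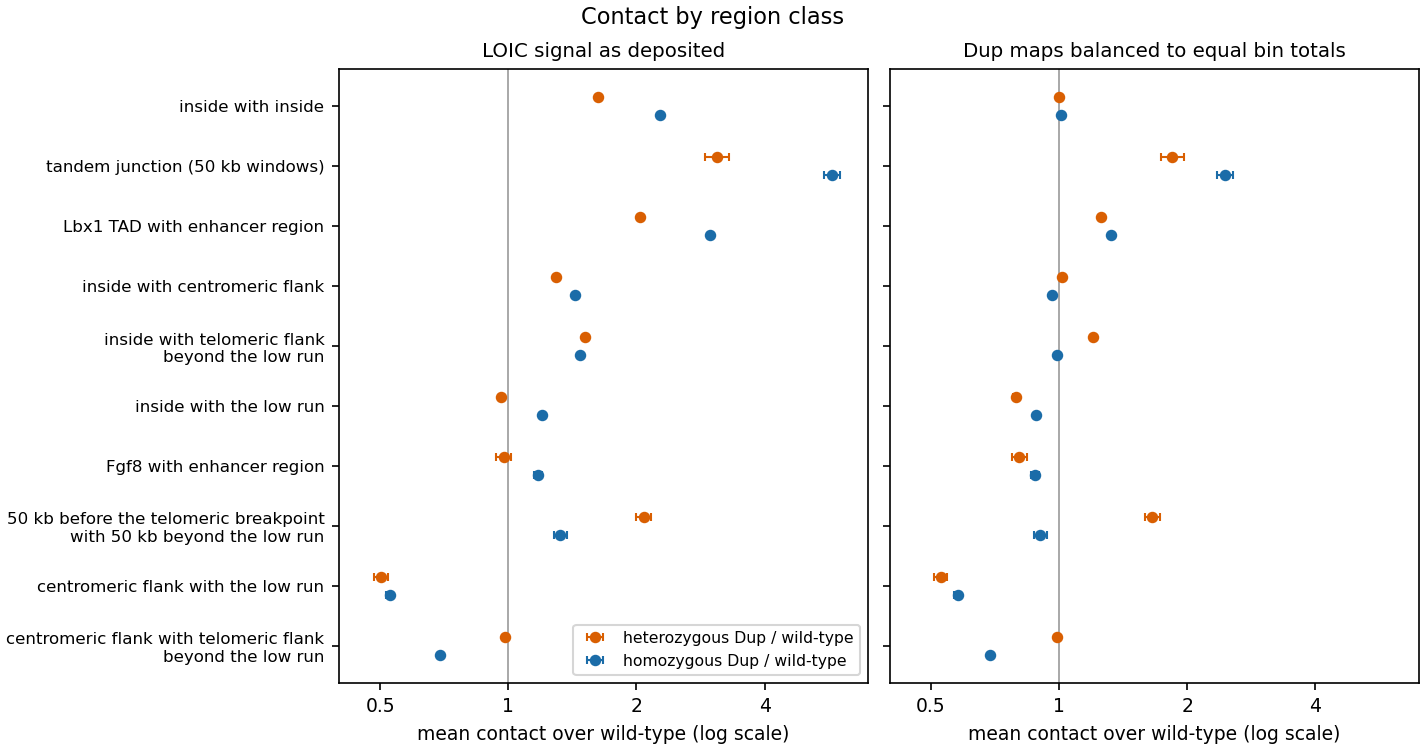
Mean contact over wild-type (log axis) in heterozygous and homozygous *Dup* for each class of bin pair, on the LOIC signal as deposited (left) and with both *Dup* maps balanced to equal bin totals (right), with bars for 95% counting intervals. On the left the heterozygote lay between the wild-type and the homozygote inside the duplication (1.62 and 2.27) and at the tandem junction (3.09 and 5.74), and above the homozygote over the low run (2.08 and 1.33).

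Contact among loci of the duplication lay between both other genotypes. The mean signal per bin pair inside the duplication was 239 in the wild-type, 387 in the heterozygote and 541 in the homozygote on the wild-type scale. The heterozygous ratio was 1.62 (1.62 to 1.63) and the homozygous ratio 2.27, which placed the heterozygote 49.3% (48.9 to 49.7) of the way. The bin totals put in, 1.5 and 2, would by themselves place it at 50%. On read pairs with no copy number put in, the ratios were 1.74 and 2.37 and the share 53.9% (53.6 to 54.3). Balancing both *Dup* maps to equal bin totals takes the copy number out and holds mean inside contact near 1, and gave 1.00 and 1.01.

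The ratio rose with distance in both genotypes. For loci 5 to 50 kb apart it was 1.49 in the heterozygote and 2.01 in the homozygote, close to the bin totals of 1.5 and 2 put in. On read pairs, with no copy number put in, the ratios of this class were 1.61 and 2.10. On the LOIC signal the ratio was 1.75 and 2.45 at 100 to 200 kb. Beyond 400 kb, where loci at opposite ends of the duplication were paired, it was 2.47 (2.396 to 2.54) and 4.27 (4.19 to 4.36). The share of the way changed little, from 48.8% in the nearest class to a highest value of 51.9% and then 44.9% in the most distant class. The last class includes the bin pairs that a tandem copy brings close together.

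Across the tandem junction the heterozygote showed the largest gain of the region classes measured. Bins within 50 kb of the centromeric breakpoint and bins within 50 kb of the telomeric one, all inside, had a mean signal of 85.7 in the wild-type, 265 in the heterozygote and 492 in the homozygote. These means rest on 4512, 4266 and 27457 read pairs. The heterozygous ratio was 3.09 (2.90 to 3.29), the homozygous ratio 5.74 (5.50 to 6.00), and the share of the way 44.1% (40.7 to 47.5).

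The gain was steeper close to the junction. In windows of 25 kb on either side the ratios were 4.58 and 9.06, and in windows of 100 kb 2.41 and 4.09. After balancing, which removes the copy number, the ratio for 50 kb windows was still 1.85 (1.73 to 1.97) in the heterozygote and 2.45 in the homozygote. The gain at the junction was thus larger than that of the duplication's bins as a whole in both genotypes. A stripe of contact was also measured from chr19:45255001-45290000, the 35 kb just upstream of the centromeric boundary. It was paired with all bins from the end of the boundary between the TADs to the last bin before the telomeric breakpoint bin. This stripe, which includes pairs close to the junction, gave 2.93 (2.80 to 3.06) and 5.20 (5.04 to 5.36).

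**Figure D3:**
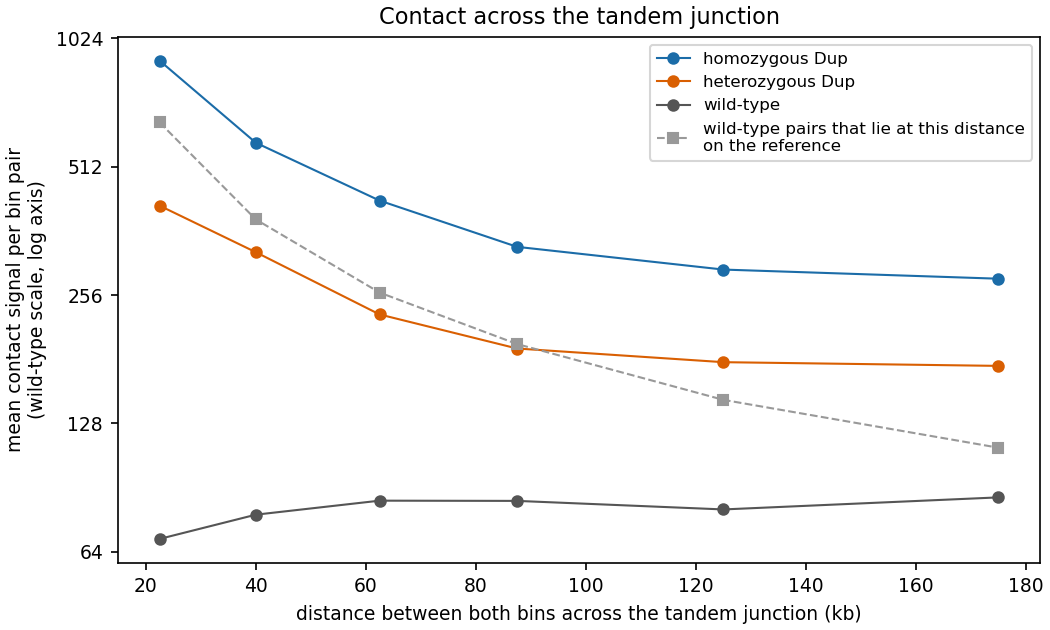
Mean contact signal per bin pair (wild-type scale, log axis) by distance in kb across the tandem junction, for pairs inside the duplication in wild-type, heterozygous and homozygous *Dup*, with grey squares for wild-type pairs that lie at that distance on the reference. At 15 to 30 kb the heterozygous mean was 415 and the homozygous mean 907 against 68.6 in the wild-type, and the reference distance gave 650.1.

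The junction was also set against wild-type contact at the same distance, a measure that does not use the homozygote. The signal gained over the wild-type at bin pairs up to 100 kb apart in the tandem order was divided by the mean wild-type signal at that distance. A value of 1 thus stands for the gain that linear neighbours on both chromosomes would have. Neighbours on 1 chromosome of 2 would give 0.5. The dose was 0.558 (0.522 to 0.594) in the heterozygote and 1.27 (1.25 to 1.29) in the homozygote. Within 15 to 30 kb it was 0.532 (0.356 to 0.708) from 102 heterozygous read pairs, and at 30 to 50 kb 0.635 (0.538 to 0.732) from 632. With the copies of the reference contact taken off in place of 1 wild-type contact, a choice made after seeing the data, the doses were 0.402 and 0.959. The heterozygous dose was 43.9% of the homozygous one in the first form and 41.9% in the second. The first percentage is the same quantity as the share of the way for these bin pairs. Both percentages use the homozygote, and the bin pairs overlap those of the 50 kb windows, so neither is a separate check. The size of the dose depended on the signal: after balancing, which already takes the copy number out, it was 0.209 and 0.365.

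Contact of the *Lbx1* TAD with the region of the AER enhancers was raised in the heterozygote. The *Lbx1* TAD was taken as chr19:45290001-45615000 and the enhancer region as chr19:45645001-45775000, which holds the whole of *Fbxw4* and was wholly duplicated. The mean signal per bin pair was 77.4 in the wild-type, 158 in the heterozygote and 230 in the homozygote, from 127359, 98899 and 496869 read pairs. The ratio was 2.04 (2.02 to 2.06) in the heterozygote and 2.97 (2.95 to 2.99) in the homozygote, 52.5% (51.7 to 53.3) of the way.

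These contacts rose by more than those within either region, but they also mostly spanned longer distances, where inside ratios were higher. All bin pairs inside the duplication, which include these contacts, had ratios of 1.79 and 2.61 at 200 to 300 kb. At 300 to 400 kb they were 1.94 and 3.03. Whether contact between both regions rose by more than other inside contact at the same distance was not tested. Within the *Lbx1* TAD the ratios were 1.55 and 2.14, and within the enhancer region 1.48 and 1.98. After balancing, contact between both regions was still 1.25 (1.24 to 1.26) in the heterozygote and 1.33 in the homozygote. By contrast, balanced contact within the *Lbx1* TAD was 0.968 and 0.970, and within the enhancer region 0.897 and 0.870. Balanced contact of all inside pairs was 1.102 and 1.164 at 200 to 300 kb, and 1.189 and 1.343 at 300 to 400 kb. The enhancer region as read on the reference stands for all its copies, so which copy met the *Lbx1* TAD could not be told apart.

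For the promoters of single genes, 3 bins around each start site were paired with the enhancer region, and 34 of the 35 protein-coding genes of the interval could be measured. Some neighbouring genes share all 3 bins, so these are 30 distinct measurements, and the counts of promoters below are over distinct ones. On the LOIC signal *Btrc* had the highest heterozygous ratio of all, 2.12 (2.01 to 2.24), with mean signals of 58.7 in the wild-type, 125 in the heterozygote and 186 in the homozygote. *Lbx1* had means of 77.4, 145 and 238, ratios of 1.88 (1.80 to 1.96) and 3.08 (2.98 to 3.18), and a share of the way of 42.2%. For *Btrc* the homozygous ratio was 3.16 and the share 51.8%. After balancing, the heterozygous ratio was 1.31 for *Btrc* and 1.149 for *Lbx1*, below the 1.44 of *Nolc1* in the telomeric flank. On read pairs, with no copy number put in, *Btrc* was again the highest at 2.52, with *Lbx1* at 2.33 and *Nolc1* at 2.18. The rank of *Btrc* thus depended on the scale.

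The promoters that lie next to or within the enhancer region rose less. *Poll* and *Dpcd*, which share their promoter bins and give 1 measurement, had mean signals of 306, 511 and 684, with ratios of 1.67 and 2.23. *Fbxw4*, whose promoter stands in the enhancer region, had 647, 971 and 1284, with ratios of 1.501 and 1.98. Both pairs of ratios came close to 1 or below it once the maps were balanced, at 1.01 and 0.979 for *Poll* and *Dpcd* and 0.910 and 0.869 for *Fbxw4*. The remaining promoter of the duplication, that of Gm6807, a gene annotated within *Btrc* and named after its values were seen, had ratios of 1.99 (1.91 to 2.08) and 2.86. Its heterozygous ratio was above the 1.88 of *Lbx1*, and after balancing its ratios were 1.23 and 1.28. All 5 distinct promoter measurements of the duplication lay below the homozygote by more than counting error on the LOIC signal.

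Promoters outside the duplication were paired with an enhancer region that was itself present in more copies. Over the 25 of them the median heterozygous ratio was 1.43, and 22 lay above 1 by more than counting error and 0 below. In the centromeric flank *Slf2* (a factor of DNA repair) had mean signals of 15.7, 22.1 and 24.8, and *Twnk* (the mitochondrial DNA helicase) 23.6, 31.3 and 34.3. Their ratios were 1.40 (1.26 to 1.56) and 1.57 for *Slf2*, and 1.33 (1.21 to 1.46) and 1.45 for *Twnk*. In none of the 13 promoters of this flank did the heterozygote exceed the homozygote, and in 10 it was lower by more than counting error. This order depended on the scale: after balancing, 9 of the 13 were higher in the heterozygote, with medians of 1.04 and 0.971. On read pairs, with no copy number put in, 1 of the 13 was, with medians of 1.47 and 1.55.

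On the telomeric side the heterozygote was mostly the higher genotype with or without the copy number in the signal. Of the 10 promoters beyond the low run, the heterozygote exceeded the homozygote in 9, in 5 of them by more than counting error. The median ratios were 1.63 and 1.53. *Oga*, whose promoter lies just beyond the run, had mean signals of 98.8, 162 and 134, with ratios of 1.64 (1.57 to 1.71) in the heterozygote and 1.36 (1.31 to 1.40) in the homozygote. *Kcnip2*, named after its values were seen, had 1.80 and 1.40. The highest ratio of a flank was that of *Nolc1*, 1.85 (1.70 to 2.01) against 1.61. After balancing all 10 were higher in the heterozygote, with medians of 1.28 and 1.01. The low read depth next to these promoters moved with this result, and its part was not tested.

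**Figure D4:**
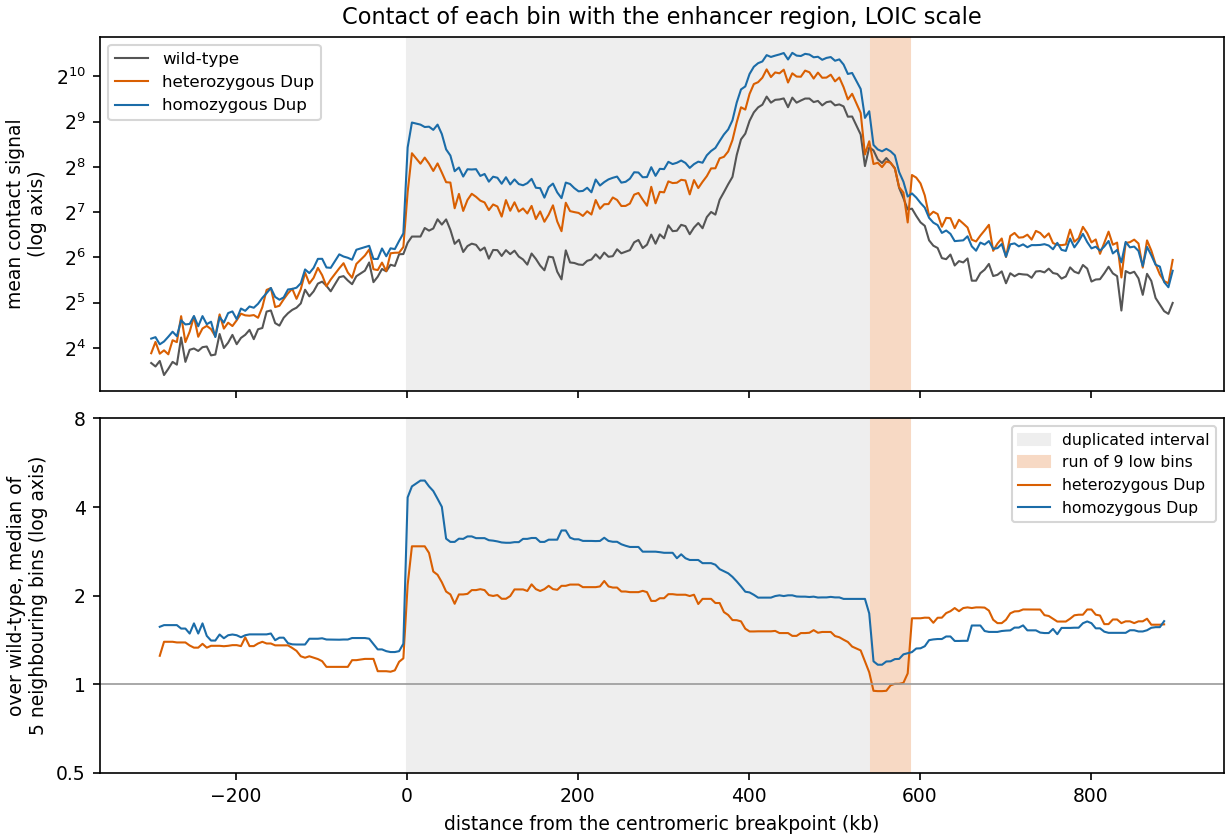
Mean contact signal of each 5 kb bin with the enhancer region on the wild-type scale (top) and its ratio over wild-type as the median of 5 neighbouring bins (bottom), both on log axes, against the distance in kb from the centromeric breakpoint. The heterozygous line lay between the other genotypes inside the duplication, near the wild-type in the low run that holds *Fgf8* (ratio 0.980), and above the homozygote just beyond it (*Oga*, 1.64 and 1.36).

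*Fgf8*, the gene that the duplication leaves out, had the lowest heterozygous ratio of the promoters on the LOIC signal, with an interval that overlaps that of *Npm3* (1.00, 0.966 to 1.04), also in the low run. Its promoter bins gave mean signals of 272 in the wild-type, 267 in the heterozygote and 323 in the homozygote, with a heterozygous ratio of 0.980 (0.949 to 1.01) and a homozygous ratio of 1.186 (1.17 to 1.21). The median read depth of these bins in the heterozygote was only 0.586 of the wild-type. LOIC divides by each bin's own coverage and so raises bins of low depth. On read pairs, where nothing raises them, contact of the *Fgf8* promoter with the enhancer region was 0.680 of the wild-type in the heterozygote and 1.385 in the homozygote, and that of *Npm3* 0.622 and 1.33. After balancing the *Fgf8* values were 0.810 and 0.886. Over the 2 bins of the gene itself the ratios were 0.974 (0.937 to 1.01) and 1.17 on the LOIC signal, 0.697 (0.671 to 0.725) and 1.395 on read pairs, and 0.807 and 0.878 after balancing. The heterozygous ratio was thus not told apart from 1 by counting error on the LOIC signal and lay below 1 on the other scales, whereas the homozygous ratio was above 1 on the first 2 scales and below it after balancing. With the 50 kb AER enhancer interval in place of the wider region the heterozygous ratio of these 2 bins was 1.05 (0.984 to 1.11). *Fgf8* lies wholly in the low run, so a value without the run cannot be given.

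Contact between the duplication and the run was low in the heterozygote as a whole. Bins inside the duplication paired with the run at 0.962 (0.949 to 0.975) of the wild-type, against 1.197 (1.188 to 1.206) in the homozygote, and on read pairs at 0.664 and 1.298. The 50 kb before the telomeric breakpoint paired with the run at 0.881 (0.852 to 0.911) and 1.101. The run paired with the 50 kb beyond it at 0.809 (0.784 to 0.836) and 0.989, or at 0.546 and 0.968 on read pairs. Contact within the run was 1.46 (1.42 to 1.49) on the LOIC signal and 0.635 (0.620 to 0.650) on read pairs, so its direction depended on the scale. In the homozygote it was 0.957 and 1.06.

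Contact over the run, from one side to the other, was raised in the heterozygote. The last 50 kb of the duplication and the 50 kb beyond the run had a mean signal of 89.9 in the wild-type, 187 in the heterozygote and 119 in the homozygote, from 6296, 5012 and 10837 read pairs. The heterozygous ratio was 2.08 (1.99 to 2.17) and the homozygous ratio 1.33 (1.28 to 1.37). On read pairs they were 2.28 and 1.31, and after balancing 1.66 and 0.904. With 100 kb on either side the ratios were 1.82 (1.78 to 1.87) and 1.40. Here the heterozygote did not lie between the other genotypes on any of the 3 scales. The *Lbx1* TAD, farther away, paired with the 100 kb beyond the run at 1.32 in the heterozygote and 1.47 in the homozygote. On read pairs both ratios were 1.45, and after balancing they were 1.07 and 1.01, so which genotype was higher from there depended on the scale.

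The 3 boundaries of the locus were read as contact between the 100 kb on one side and the 100 kb on the other. Across the middle boundary, which separates the *Lbx1* and *Fgf8* TADs and was itself duplicated, the ratio was 1.86 (1.83 to 1.89) in the heterozygote and 2.53 (2.50 to 2.55) in the homozygote. Across a site in the middle of the *Lbx1* TAD, taken for comparison, it was 1.59 and 2.20. Contact across the middle boundary as a share of contact within the windows was 19.0% in the wild-type, 23.8% in the heterozygote and 23.7% in the homozygote. On this measure the heterozygote stood at the homozygous level and not between both other maps.

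The centromeric and telomeric boundaries differed from each other. Across the centromeric boundary, at chr19:45295001-45300000 in the duplication, the share was 20.5%, 21.5% and 21.0%. Across the telomeric boundary, at chr19:45815001-45825000 in the low run, it was 16.1% in the wild-type, 21.4% in the heterozygote and 15.1% in the homozygote. On read pairs it was 19.5% in the heterozygote and 15.3% in the homozygote, and after balancing 22.6% and 17.3%. Contact across it rose in both genotypes on the LOIC signal, by ratios of 1.503 (1.47 to 1.53) and 1.24 (1.23 to 1.26). On read pairs the ratios were 1.28 and 1.24, and after balancing 1.31 and 1.01 (0.993 to 1.02).

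Contact between the boundaries was measured over 25 kb at each. The centromeric and middle boundaries paired at 1.61 (1.54 to 1.68) in the heterozygote and 2.57 (2.50 to 2.64) in the homozygote, 39.1% of the way. The middle and telomeric boundaries paired at 0.900 (0.854 to 0.949) and 1.24 (1.21 to 1.28), and the centromeric and telomeric boundaries at 0.935 (0.876 to 0.998) and 1.152 (1.11 to 1.195). On read pairs these last pairings were 0.652 and 0.647 in the heterozygote. After balancing, the centromeric and middle boundaries paired at 0.985 and 1.14, the middle and telomeric ones at 0.739 and 0.916, and the centromeric and telomeric ones at 0.767 and 0.846. Both pairings that involve the telomeric boundary, and so the low run, lay below the wild-type in the heterozygote on all 3 scales. In the homozygote they did so only after balancing.

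Over the whole flanks, contact with the duplication was raised on both sides. With the centromeric flank the mean signal was 23.0 in the wild-type, 29.7 in the heterozygote and 32.9 in the homozygote, with ratios of 1.293 (1.284 to 1.302) and 1.43 and a share of the way of 67.5% (65.6 to 69.4). With the telomeric flank the means were 36.8, 50.3 and 51.5, the ratios 1.37 (1.36 to 1.38) and 1.40, and the share 92.1% (90.2 to 94.0). Without the low run the telomeric ratios were 1.52 (1.51 to 1.53) and 1.47, so the heterozygote then exceeded the homozygote. After balancing, the centromeric ratios were 1.02 and 0.962 and the telomeric ones 1.09 and 0.961. With 1 scaling factor for the whole map the centromeric ratios were 1.45 and 1.397, so the order of the genotypes there depended on the scaling.

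Contact of one flank with the other, across the duplication, fell in both genotypes and by less in the heterozygote. The mean signal was 11.0 in the wild-type, 10.1 in the heterozygote and 7.35 in the homozygote, giving ratios of 0.922 (0.913 to 0.931) and 0.670 (0.665 to 0.675) and a share of the way of 23.8% (21.1 to 26.4). The run carried most of the heterozygous fall. Between the centromeric flank and the run the ratios were 0.502 (0.484 to 0.521) and 0.526 (0.516 to 0.536), and between the centromeric flank and the telomeric flank beyond the run they were 0.981 (0.971 to 0.991) and 0.690 (0.685 to 0.696). The last heterozygous value is within the few percent by which the flanks differed after scaling, and on read pairs it was 1.02 (1.01 to 1.03). The scaling error at these distances was not measured, so no fall is claimed there. With 1 scaling factor for the whole map the heterozygous ratio over the whole flanks reversed to 1.06 (1.05 to 1.07), while the homozygous ratio stayed at 0.666. With factors from all bin pairs outside the duplication the ratios were 0.968 and 0.954. Those factors were fitted in part on the flank-with-flank pairs themselves, which draws this class to 1 by construction. They are therefore no independent check of the fall.

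**Figure D5:**
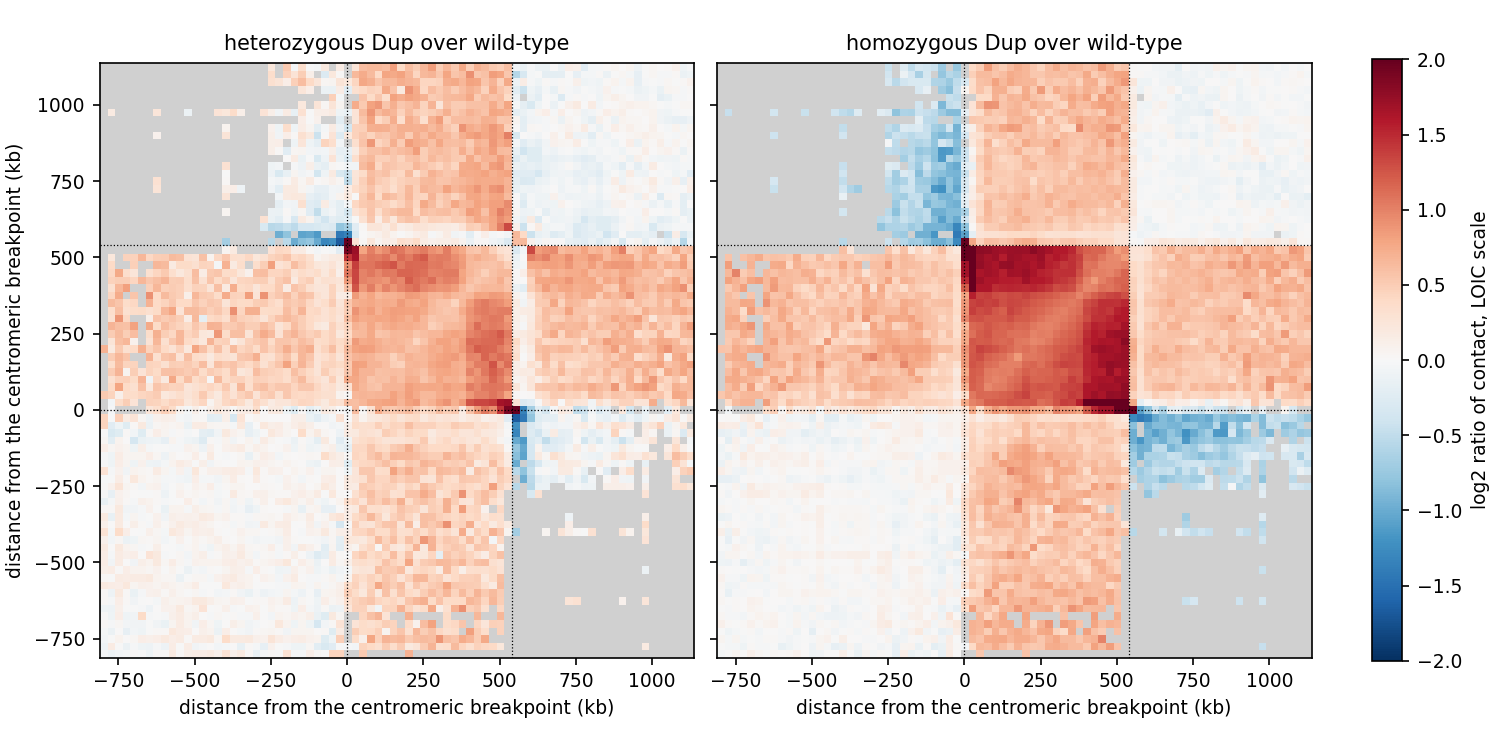
Ratio of contact over wild-type (log2 colour scale) in blocks of 25 kb by 25 kb for heterozygous and homozygous *Dup*, with both axes in kb from the centromeric breakpoint, dotted lines at the breakpoints, and grey where the wild-type or heterozygous map held under 100 read pairs. Of the 2466 blocks shown, 43.7% were higher past 1.3-fold and 1.26% lower in the heterozygote, and in the homozygote contact of one flank with the other was lower over a wider area. Blocks low in the heterozygote were more easily lost to the limit of 100 read pairs.

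Counts of blocks gave the background to these classes. In the heterozygote 2466 blocks of 25 kb by 25 kb held at least 100 read pairs in each map compared, and past 1.3-fold 1077 were higher (43.7%) and 31 lower (1.26%), or 44.9% in either direction. Inside the duplication 229 of 231 blocks were higher. Blocks between the duplication and a flank were higher in 395 of 613 on the centromeric side and 417 of 482 on the telomeric side. Within a flank, where the scaling was set, 5 were higher and 2 lower of 803. Without the bins of the low run 2393 blocks were left, of which 1081 were higher and 11 lower.

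In the homozygote 3061 blocks passed, of which 1343 were higher (43.9%) and 509 lower (16.6%), or 60.5% in either direction. All 231 blocks inside the duplication were higher, as were 627 of 670 and 438 of 483 with the centromeric and telomeric flanks. The counts differed most in blocks across the duplication, where 14 of 215 were lower in the heterozygote and 480 of 718 in the homozygote. These counts are over different blocks, since the shallower heterozygous map left fewer with enough read pairs. A block low in the heterozygote was also more easily lost to that limit. With at least 50 read pairs, 77 of all 2966 blocks were lower in the heterozygote, and with at least 200, 7 of 1816. The counts of lower blocks thus depended on the limit and are no measure of the difference between genotypes. After balancing, 7.06% of the heterozygous blocks were higher and 2.07% lower, 9.12% in all, and of the 231 inside the duplication 25 were higher.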

How the data were processed

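Capture Hi-C libraries had been made and processed by the authors. Reads of 50 bp were mapped, filtered (mapping quality of at least 30) and deduplicated with HiCUP 0.8.1 and Bowtie2 2.4.2 on mm9, replicates were joined, and maps were binned at 5 kb. The deposited values are contact signal: KR-balanced with Juicer tools 1.19.02 for the wild-type, and LOIC-normalised with iced 0.5.10 for *Dup*, with a copy number of 4 for duplicated bins and 2 elsewhere in the homozygote. For the heterozygote no source used here states the number, but its duplicated bins had 1.5 times the total of other bins. The study removed low-coverage bins before LOIC, and 387 bins had values in all 3 maps used.

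Whole read pairs were recovered from the deposited signal by dividing by bin factors, and 100% of values came within 0.01 of a whole number. Mutant signal was scaled to the wild-type at each distance on bin pairs within a flank, with at least 20 bin pairs a distance and a pooled factor beyond 700 kb. Mean signals were then compared over region classes, with breakpoint bins left out. Counting intervals (95%) came from the read pairs. Maps were also balanced to equal bin totals, and also rebuilt from read pairs divided by the wild-type bin factors. Signal from pairs within 1 bin was used only for read depth. Python 3.11.15, NumPy 2.4.6 and SciPy 1.17.1 were used, and the scripts were tested on simulated data. Genes named were those of the duplication, *Fgf8*, *Slf2*, *Twnk* and *Oga*, and the ends of a ranking of all genes. Region ends were read from the study's maps and are uncertain by at least 1 bin. Members, regions and lists were chosen with earlier results of these data known. The homozygous inversion maps and the authors' subtraction maps, which hold their own comparisons, were not used; heterozygous *Inv1* served the label check alone.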

Additional observations from a re-analysis of the deposited data

Results flagged for a closer look

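In 6 measures the heterozygous and homozygous *Dup* maps lay on opposite sides of the wild-type on the LOIC signal or in read depth, and all 6 involve the 45 kb of low heterozygous read depth next to the telomeric breakpoint. With 1 merged map per genotype the difference was not tested in any of them. The read depth of the run itself, by which its bins were picked in the heterozygote, was 0.581 of the wild-type there and 1.05 in the homozygote. Contact of the duplication with the run was 0.962 against 1.197, and that of the last 50 kb of the duplication with the run 0.881 against 1.101. Contact within the run was 1.46 against 0.957 on the LOIC signal, and changed sides on read pairs. The middle boundary paired with the telomeric one at 0.900 against 1.24, and the centromeric boundary with the telomeric one at 0.935 against 1.152. After balancing to equal bin totals the 5 contact measures lay on the same side in both genotypes. In the same order they were 0.792 and 0.885, 0.720 and 0.811, 1.6003 and 1.17, 0.739 and 0.916, and 0.767 and 0.846. On read pairs, with no copy number put in, the 5 lay on opposite sides again. The values there were 0.664 and 1.298, 0.617 and 1.18, 0.635 and 1.06, 0.652 and 1.503, and 0.647 and 1.298. The opposite sides of the contact measures thus depended on the scale.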

How the results depend on the processing

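Of 61 alternatives over the 10 results, 21 stayed within the counting interval or within 1.5 times the count, 39 moved and 1 reversed. Balancing to equal bin totals, which takes out the copy number, moved inside contact to 1.00, the tandem junction to 1.85, *Lbx1* TAD with enhancer region to 1.25, *Fgf8* with enhancer region to 0.807, duplication with centromeric flank to 1.02 and with telomeric flank to 1.09, the junction dose to 0.209 and the blocks past 1.3-fold from 1108 to 225. Read pairs on the wild-type bin factors gave 1.74 inside, 2.22 for the *Lbx1* TAD with the enhancer region, 0.697 for *Fgf8*, 1.34 and 1.39 for the centromeric and telomeric flanks, and 0.936 for flank with flank. With 1 factor for the whole map the values were 1.63 inside, 3.51 at the junction, 2.21 for the *Lbx1* TAD, 1.03 for *Fgf8*, 1.45 and 1.53 for the flanks and 0.677 for the junction dose, and flank with flank reversed to 1.06. Scaling over all bin pairs outside gave 1.37 and 1.44 for the flanks and 0.968 for flank with flank (0.954 in the homozygote). The flank-with-flank values are drawn to 1 by that scaling, which was fitted in part on the same pairs. Leaving out 5 bins at either breakpoint gave 1.61 inside and 1.34 and 1.46 for the flanks. The AER enhancer interval alone gave 1.05 for *Fgf8*. Junction windows of 25 kb and 100 kb gave 4.58 and 2.41, and tandem distances up to 200 kb a dose of 0.672. Read depth was 1.56 in even bins, 1.59 in odd bins, 1.58 and 1.56 against the centromeric and telomeric flank alone, and 1.55 for pairs 100 kb or more apart. Of the alternatives chosen after seeing the data, leaving out the low run gave 1.51 for the telomeric flank and 0.981 for flank with flank, and taking off the copies of the reference contact a junction dose of 0.402. Where no construction of the alternative shows it, the cause was not tested.

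The share of the way was the least stable where the homozygote itself stood near 1: over all settings it ran from 41.5% to 58.3% at the junction and from 52.1% to 77.2% for the *Lbx1* TAD with the enhancer region, but from -230% to 147% for the telomeric flank. No paired analysis was possible because the libraries were merged to 1 map per genotype and the heterozygote had 1 replicate; for the same reason no replicate was left out. Depth limited the heterozygous map most, with a median of 10 read pairs per bin pair.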
